A study of Mus musculus with 48 samples.

Results

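The transcripts of 10 genes that act as negative feedback regulators of ERK signalling were followed in mPDAC, a cell line of mouse ductal adenocarcinoma of the pancreas, with and without the nucleolin antagonist N6L. The genes are 5 MAP kinase phosphatases (Dusp1, Dusp4, Dusp5, Dusp6 and Dusp7), 3 Sprouty genes (Spry1, Spry2 and Spry4) and 2 Spred genes (Spred1 and Spred2). They were chosen by symbol, with earlier results of these data known. All 10 were among the 50600 genes listed and among the 13889 that held enough counts to be tested. 3 cultures, numbered 1, 2 and 3, received 50 µM N6L for 48 h, and 3 non-treated (NT) cultures, numbered 1, 2 and 4, received none. The genetic background of all of them is given as FVB/N x C57BL6 and the age as 8 weeks, and all are cultures of 1 line. Every culture was exposed to emetine before lysis, and nuclei and mitochondria were spun out of the lysate. An aliquot of the cytoplasmic lysate gave a cytoplasmic library, and the pooled polysomal fractions of a sucrose gradient gave a polysomal library, so that 4 groups of 3 polyA+ libraries were obtained.

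ERK is the last kinase of the cascade that runs from growth factor receptors through Ras, Raf and MEK, and it is a main output of oncogenic Ras in pancreatic cancer. Active ERK switches on the transcription of its own inhibitors. The Dusp enzymes remove phosphate from ERK itself, and some of them also from the related kinases JNK and p38, whereas Sprouty and Spred proteins act upstream, between the receptor and Raf. Because most of these mRNAs are short-lived and depend on ERK for their synthesis, they are commonly read as a measure of pathway activity.

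The 12 libraries held between 19519911 and 44972333 counts, and the 10 genes between 585 and 19067 counts in any library. Values below are CPM, library sizes being scaled by the trimmed mean of M values (TMM). They are shares of a library, so that a rise or fall below is a change of share. Less RNA per cell and fewer cells cannot be told apart. The ductal keratins Krt8, Krt18 and Krt19 each had a mean of 1196 CPM or more in every group, but Epcam and Cldn4, also epithelial markers, were near 0. Among the markers of other cell types, Vim accounted for nearly all of the fibroblast and mesenchymal sum (1818 to 3192 CPM), and the leukocyte and endothelial sums reached at most 3.71 and 1.18 CPM. The acinar sum lay between 27.8 and 82.8 CPM and came almost wholly from Cela1, with Cpa1, Pnlip, Ptf1a and Amy2a5 at 0 in all groups. The labels of 3 repeat runs (N6L culture 2, cytoplasm) name another culture in 1 field. Their chi-square divided by its degrees of freedom was at most 1.04 against the remaining run of culture 2 and at least 11.2 against culture 1, and they were kept with culture 2.

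To compare the genes with each other in non-treated cells, CPM were divided by transcript length. Dusp6, a cytoplasmic phosphatase that prefers ERK, and Dusp5, a nuclear one, had the highest cytoplasmic levels, at 95.0 ± 30.2 and 92.8 ± 17.5 CPM per kb (SD, n = 3). Dusp1, a nuclear phosphatase of ERK, JNK and p38, followed at 44.2 ± 13.2 CPM per kb and Spry2 at 37.6 ± 9.21. Spry1 stood at 20.1 ± 2.90, Dusp4 at 19.0 ± 6.76, Spred2 at 16.2 ± 3.91, Dusp7 at 15.4 ± 2.29, Spred1 at 12.7 ± 4.91 and Spry4 at 7.29 ± 1.24 CPM per kb. The ranges of neighbours in this order overlapped except between Dusp5 and Dusp1 and between Spry2 and Spry1. With N6L the cytoplasmic levels per kb were led by Dusp5 (159.7 ± 6.30) and Dusp1 (140.0 ± 14.4), ahead of Dusp6 (114 ± 5.18) and Dusp4 (64.3 ± 13.1). This order depended on the length used, since by the mean length of a gene's transcripts Dusp6 stood at 188, Dusp1 at 187 and Dusp5 at 159.7 CPM per kb.

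The first comparison asked how N6L changed the share of each feedback mRNA in the cytoplasmic libraries. 4 of the 10 genes rose and 0 fell (edgeR quasi-likelihood test, Benjamini-Hochberg adjusted p under 0.05 over all tested genes), namely the nuclear phosphatases Dusp1, Dusp4 and Dusp5 and the Sprouty gene Spry4. Of all tested genes 28.3% were called in this comparison and 14.5% were called higher. The median log2 fold change of the 10 genes was 0.48, beside 0.04 over all tested genes, and with an offset for transcript length and GC content it was 0.24, beside -0.05. The balance of calls over all genes depended on the scaling, with 51.2% of them higher by TMM, 65.5% by library size alone (median of all genes 0.19) and 40.1% with the offset, and Dusp1, Dusp4 and Dusp5 were called higher under each of these. The same 4 genes and Spry2 had no overlap between the groups, 5 of 10 with N6L higher, against 29.3% of all tested genes.

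Dusp1 (ENSMUSG00000024190, chr17:26505590-26562128, minus strand, mouse build GRCm38) encodes an immediate-early phosphatase induced by mitogens and by stress. Its cytoplasmic level was 102, 104 and 57.8 CPM in NT cultures 1, 2 and 4 and 246, 292 and 298 CPM in N6L cultures 1, 2 and 3. The lowest treated culture lay more than 2 times above the highest non-treated one, and the log2 fold change was 1.66 (SE 0.27, adjusted p = 0.00187). Dusp4 (ENSMUSG00000031530, chr8:34807297-34819894, plus strand) encodes a related inducible nuclear phosphatase. It stood at 46.0, 72.8 and 37.3 CPM in the NT cultures and at 218, 155 and 156 CPM with N6L, a log2 fold change of 1.76 (SE 0.29, adjusted p = 0.00179). Dusp5 (ENSMUSG00000034765, chr19:53529109-53542431, plus strand) encodes a nuclear phosphatase specific for ERK. It stood at 247, 262 and 180.2 CPM without and at 413, 385 and 387 CPM with N6L, and rose by 0.78 (log2, SE 0.19, adjusted p = 0.00923). The treated cultures lay above the non-treated ones for all 3 of these genes.

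Dusp6 and Dusp7, the cytoplasmic phosphatases among the 10 genes, did not pass the test. Dusp6 (ENSMUSG00000019960, chr10:99263231-99267489, plus strand) was measured at 353, 260.1 and 184 CPM in NT cultures 1, 2 and 4, and at 305, 334 and 319 CPM with N6L. The treated cultures lay inside the range of the non-treated ones, which was wider than the difference of the means (log2 fold change 0.27, SE 0.23, adjusted p = 0.390). Dusp7 (ENSMUSG00000053716, chr9:106368632-106375724, plus strand), a cytoplasmic ERK phosphatase, stood at 57.7, 46.7 and 43.8 CPM without and 48.3, 41.9 and 47.8 CPM with N6L. Its log2 difference was -0.10 (SE 0.15, adjusted p = 0.612), the single negative value among the 10 genes.

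The Sprouty proteins bind adaptors below receptor tyrosine kinases. Spry4 (ENSMUSG00000024427, chromosome 18) rose from 33.8, 40.9 and 29.3 CPM to 43.4, 57.4 and 57.4 CPM, by 0.60 (log2, SE 0.20, adjusted p = 0.0358). The lowest treated culture stood only slightly above the highest non-treated one. Spry2 (ENSMUSG00000022114, chr14:105891947-105896819, minus strand) stood at 94.2, 84.3 and 57.1 CPM without and at 107, 113 and 113 CPM with N6L, without overlap, yet at an adjusted p of 0.0668 (log2 fold change 0.50, SE 0.19). Spry1 (ENSMUSG00000037211, chr3:37639947-37644598, plus strand) overlapped between the groups, with 60.3, 60.7 and 46.6 CPM against 53.2, 70.9 and 77.2 CPM (log2 fold change 0.26, SE 0.21, adjusted p = 0.345).

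The Spred proteins bring neurofibromin to Ras and thereby limit Ras activity. Spred1 (ENSMUSG00000027351, chr2:117121374-117182279, plus strand) stood at 109, 68.8 and 51.6 CPM in the NT cultures and at 100.3, 124 and 92.8 CPM with N6L (log2 fold change 0.47, SE 0.27, adjusted p = 0.206). Spred2 (ENSMUSG00000045671, chr11:19924375-20024026, plus strand) stood at 91.3, 68.1 and 57.1 CPM and at 90.6, 102 and 93.4 CPM (log2 fold change 0.40, SE 0.21, adjusted p = 0.153). In both genes NT culture 1 reached the treated values. Without NT culture 1 the log2 fold change of Spred1 was 0.81 and was called (adjusted p = 0.0477), without NT culture 4 it was 0.22, without N6L culture 2 it was 0.29, and with the offset for length and GC content it was 0.02 for Spred1 and 0.06 for Spred2.

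**Figure D1:**
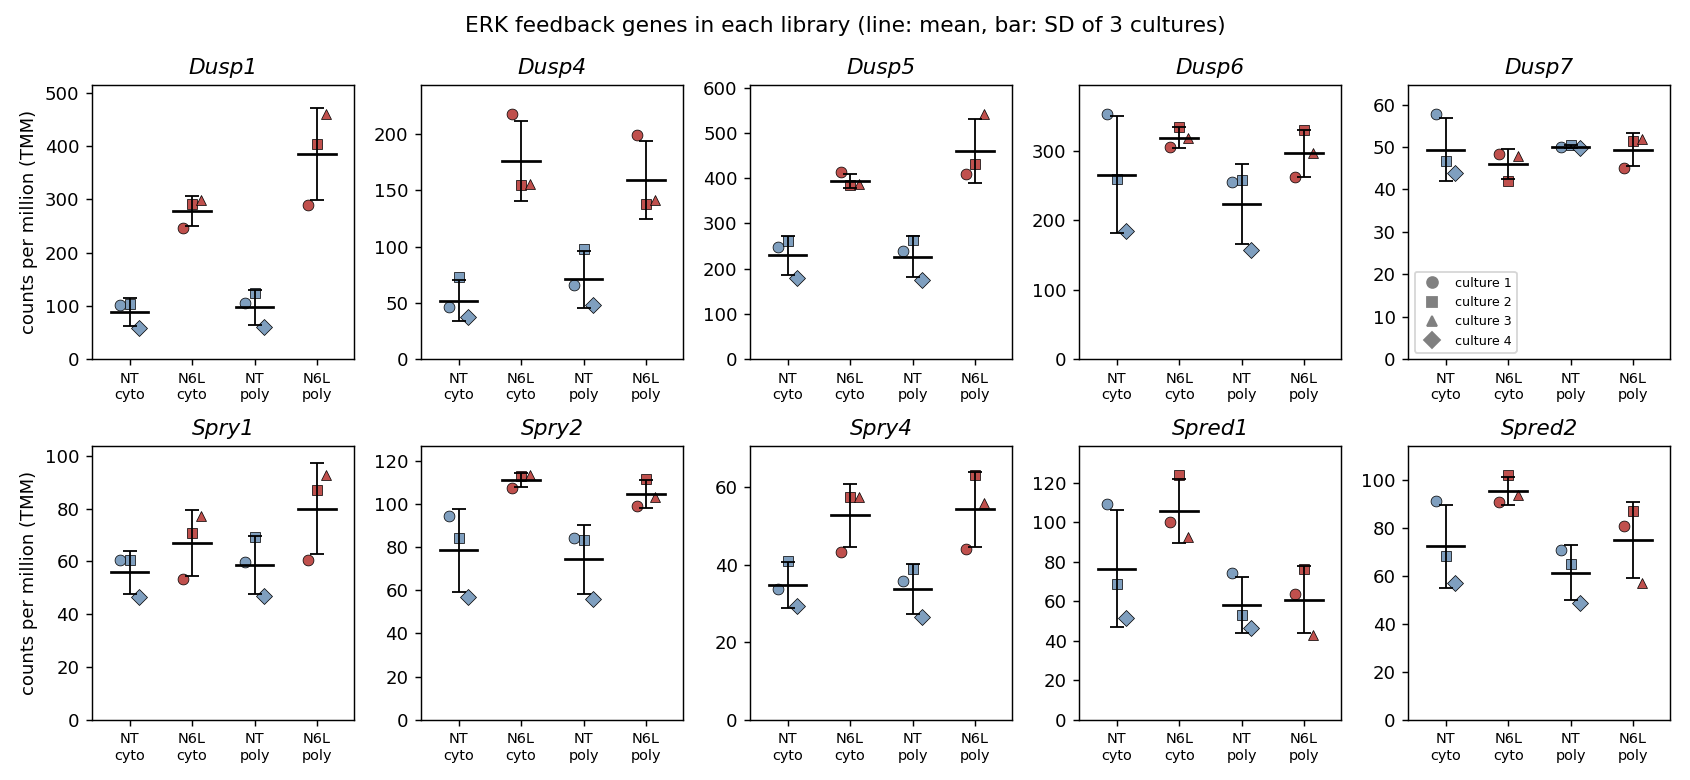
TMM CPM of each of the 10 genes (vertical axes from 0, 1 scale per gene) in the cytoplasmic and polysomal libraries of non-treated (blue) and N6L-treated (red) cultures, with the culture number as symbol, the mean as a line and the SD of 3 cultures as a bar. The treated points of Dusp1, Dusp4 and Dusp5 stand above all non-treated points in both fractions, and NT culture 4 (diamonds) is the lowest non-treated point in all panels.

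Non-treated culture 4 was the lowest of the 3 non-treated cultures for 10 of the 10 genes in the cytoplasm and for 10 of 10 in the polysomes, beside 42.3% and 37.0% of all tested genes. No culture took such a place among the treated ones, where the highest cytoplasmic value fell to culture 1 for 3 genes, to culture 2 for 3 and to culture 3 for 4. The part of culture 4 in the differences was measured by leaving it out. The cytoplasmic log2 fold changes were then 1.40 for Dusp1, 1.54 for Dusp4 and 0.60 for Dusp5, all still called, whereas Spry4 fell to 0.47 (adjusted p = 0.126). Without N6L culture 2 only Dusp1 and Dusp4 were called, with Dusp5 at an adjusted p of 0.0615 and Spry4 at 0.190, in a comparison where the calls over all genes dropped from 3935 to 1295. Spry4 also lost its call without NT culture 1 (adjusted p = 0.111), without N6L culture 3 (0.0802) and with an offset for transcript length and GC content (log2 fold change 0.24, adjusted p = 0.345).

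Promoter sequence was available from RefSeq (GRCm38.p6) for 8 of the 10 genes, all but Dusp4 and Spry4. The stretch upstream of the start site is shown for Dusp1 and Dusp5, which rose, and for Dusp6 and Spry2, which did not pass the test, 200 bases each, cut off before the first base that GENCODE annotates as exon. Capitals mark the cAMP response element (CRE, TGACGTCA) and its half-site (TGACG), and the CArG box that serum response factor binds, on either strand. The full CRE contains the half-site on both strands.
Dusp1, chr17:26508520-26508719, minus strand: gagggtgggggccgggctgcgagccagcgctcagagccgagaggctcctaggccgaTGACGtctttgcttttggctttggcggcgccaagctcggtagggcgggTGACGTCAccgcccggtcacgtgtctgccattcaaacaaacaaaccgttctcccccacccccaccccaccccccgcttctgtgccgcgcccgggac
Dusp5, chr19:53528909-53529108, plus strand: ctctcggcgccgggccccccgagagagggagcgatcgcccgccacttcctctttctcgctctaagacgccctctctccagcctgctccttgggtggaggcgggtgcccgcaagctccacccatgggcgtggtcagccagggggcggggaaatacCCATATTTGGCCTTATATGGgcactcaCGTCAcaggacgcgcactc
Dusp6, chr10:99263031-99263230, plus strand: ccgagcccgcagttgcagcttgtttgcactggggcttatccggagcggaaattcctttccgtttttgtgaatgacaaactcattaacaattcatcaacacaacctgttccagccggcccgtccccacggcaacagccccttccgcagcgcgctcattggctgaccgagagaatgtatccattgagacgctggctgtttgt
Spry2, chr14:105896820-105897019, minus strand: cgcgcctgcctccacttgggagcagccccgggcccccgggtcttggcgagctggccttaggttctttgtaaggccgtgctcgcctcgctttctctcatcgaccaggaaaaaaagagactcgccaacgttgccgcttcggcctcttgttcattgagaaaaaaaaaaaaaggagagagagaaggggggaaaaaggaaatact

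In the 250 bases before the start site, Dusp1 held 1 full CRE, at 143 to 136 bases upstream, a motif found in 1.62% of the 27025 promoters of the table, and 1 further half-site at 191 to 187. Dusp5 held 2 adjoining CArG boxes, at 82 to 73 and 72 to 63 bases upstream, and 1 half-site at 55 to 51. A CArG box was found in 1.40% of all promoters and a half-site in 17.9%. The half-site was present in 3 of the 8 genes (Dusp1, Dusp5 and Spred2). A GC box (GGGCGG) was present in 5 of 8, beside 32.9% of all promoters. The AP-1 motif TGANTCA (6.87% of all promoters), the ETS motif CCGGAAG (7.05%), the EGR motif GCGNGGGCG (4.65%) and the TATA box TATAAA (13%) were matched in 0 of the 8 windows. These matches describe letters in the reference sequence.

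In the second comparison the polysomal libraries were used to ask what share of the polysomal mRNA each feedback mRNA made up. The paper reports much smaller polysome peaks after N6L, so a higher share does not give the amount of an mRNA on polysomes. The same 4 genes, Dusp1, Dusp4, Dusp5 and Spry4, rose with N6L and 0 of 10 fell, while 9.67% of all tested genes were called and 6.01% were called higher. The median log2 fold change of the 10 genes was 0.47, beside 0.000807 over all tested genes. Of all calls in the polysomes 62.2% were higher by TMM, 77.6% by library size alone and 43.4% with the offset for length and GC content, and the same 4 genes were called higher under each of these. The groups did not overlap for 6 of the 10 genes, all with N6L higher (the 4 named genes, Dusp6 and Spry2), against 13.7% of all tested genes.

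Dusp1 had the greatest polysomal change of the 10 genes. It stood at 106, 125 and 61.1 CPM in NT cultures 1, 2 and 4 and at 290.1, 404 and 460.2 CPM in N6L cultures 1, 2 and 3, a log2 fold change of 1.99 (SE 0.28, adjusted p = 0.00176). Dusp4 stood at 66.1, 98.2 and 48.0 CPM without and at 199, 138 and 141 CPM with N6L, and rose by 1.17 (log2, SE 0.28, adjusted p = 0.0218). Dusp5 rose from 238, 264 and 176 CPM to 409, 433 and 542 CPM, by 1.03 (log2, SE 0.19, adjusted p = 0.00565). Thus Dusp1 and Dusp4, which had similar changes in the cytoplasm, stood further apart in the polysomes.

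Spry4 rose from 35.8, 38.8 and 26.6 CPM to 43.9, 63.1 and 55.9 CPM (log2 fold change 0.69, SE 0.20, adjusted p = 0.0439). Spry2, at 84.0, 83.3 and 55.9 CPM against 99.0, 111 and 103 CPM, was separated by group but did not pass (log2 fold change 0.49, SE 0.19, adjusted p = 0.123). Spry1 was measured at 59.8, 69.1 and 46.9 CPM against 60.4, 86.9 and 92.7 CPM (log2 fold change 0.45, SE 0.21, adjusted p = 0.182). In these 3 genes the log2 ratio of polysomal to cytoplasmic CPM of a culture lay between -0.17 and 0.29.

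Dusp6 was measured at 256, 258 and 158 CPM without and 263, 330.4 and 297 CPM with N6L (log2 fold change 0.41, SE 0.23, adjusted p = 0.273). Dusp7 stood between 45.0 and 51.9 CPM in all 6 polysomal libraries (log2 fold change -0.02, SE 0.15, adjusted p = 0.945). Spred2 stood at 70.7, 64.7 and 48.5 CPM against 80.6, 87.0 and 57.0 CPM (log2 fold change 0.29, SE 0.21, adjusted p = 0.398). Spred1, whose cytoplasmic value was 0.47, showed 0.07 here (log2, SE 0.27, adjusted p = 0.895), with 74.1, 53.3 and 46.7 CPM without and 63.9, 76.1 and 42.7 CPM with N6L.

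**Figure D2:**
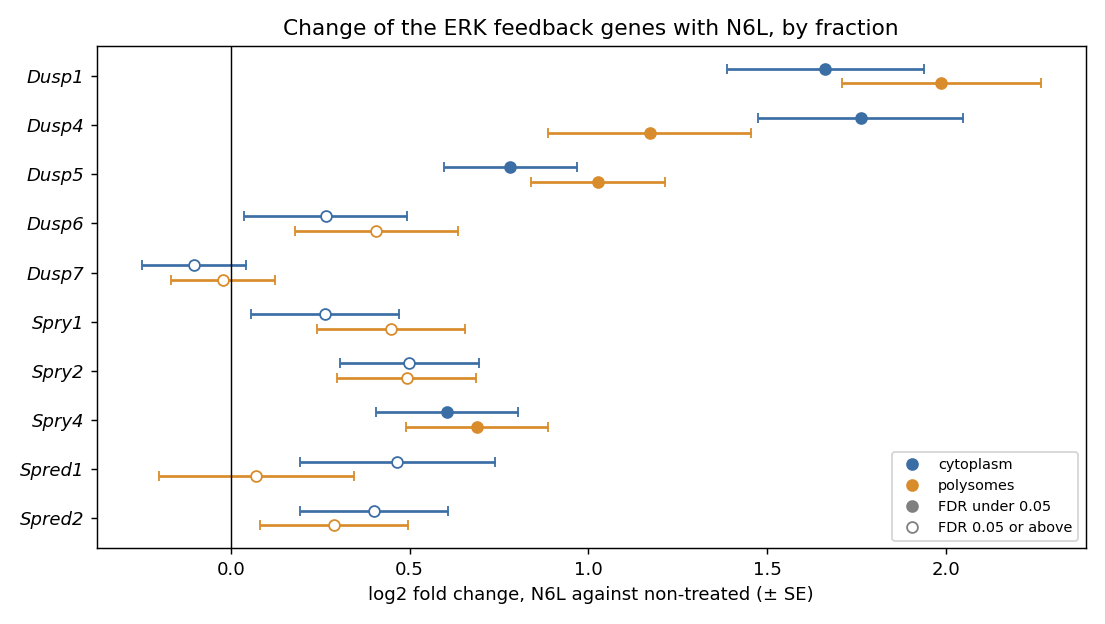
Log2 fold change of N6L-treated against non-treated cultures (horizontal axis, with SE from the edgeR fit of 12 libraries) of the 10 genes in the cytoplasm (blue) and in the polysomes (orange), filled where the adjusted p is under 0.05. Dusp1, Dusp4, Dusp5 and Spry4 are filled in both fractions, and Dusp4 is the one of them whose polysomal value, 1.17, lies below its cytoplasmic value, 1.76.

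Dusp1 was the single gene called in the polysomes under every leave-out. Without N6L culture 2 it was the only one of the 10 called, in a comparison left with 146 calls over all genes, and Dusp5 stood at an adjusted p of 0.0507. Dusp4 lost its call without NT culture 1 (adjusted p = 0.115), NT culture 4 (0.0579), N6L culture 1 (0.0513) or N6L culture 2 (0.0834), with log2 fold changes from 0.98 to 1.26. Spry4 lost its call without NT culture 1, 2 or 4, or N6L culture 2 or 3, with log2 fold changes from 0.56 to 0.80 and adjusted p from 0.0538 to 0.247, and when the polysomal libraries were fitted alone (0.127).

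The third question was how each mRNA was divided between polysomes and cytoplasm within a treatment. In the non-treated cultures 0 of the 10 genes were called between the fractions, with 0.209% of all tested genes called. In this fit, which leaves out the pairing of the fractions, 0 of the 10 had an unadjusted p under 0.05. DESeq2 also called 0 of the 10. In the N6L-treated cultures 1 of the 10 was called, Spred1, which was lower in the polysomes, while 39% of all tested genes were called and 20.6% were called lower. Spred1 held 100.3, 124 and 92.8 CPM in the cytoplasm of N6L cultures 1, 2 and 3 and 63.9, 76.1 and 42.7 CPM in the polysomes. The polysomal value was below the cytoplasmic one in each culture, and the log2 difference was -0.80 (SE 0.27, adjusted p = 0.0337).

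Because both fractions of a culture came from 1 lysate, the difference was also fitted with the culture as a replicate block. In the non-treated cultures 0 of the 10 genes were called with the block, beside 203 of all 13889 tested genes. Dusp4 was at 0.44 (log2, unadjusted p = 0.00128, adjusted p = 0.0604) and Spred1 at -0.36 (unadjusted p = 0.0233, adjusted p = 0.148). Over all tested genes 53.7% were then called in the N6L-treated cultures, and of the 10 genes Spred1 (log2 difference -0.82, adjusted p = 0.00195) and Spred2 (-0.37, adjusted p = 0.0395) were lower and Dusp1 was higher in the polysomes (0.44, adjusted p = 0.00817). With an offset for transcript length and GC content the difference of Spred1 was 0.20 in the opposite direction and was no longer called (adjusted p = 0.447), and that of Dusp1 was 0.06 (adjusted p = 0.901, and 0.580 with offset and block together). The call was also lost without NT culture 2 (adjusted p = 0.0578), N6L culture 1 (0.0709), N6L culture 2 (0.0974) or N6L culture 3 (0.148).

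Transcript length and GC content moved with the polysome-to-cytoplasm difference across all genes. In the N6L-treated cultures the median log2 difference fell from 0.65 in the 10% of genes with the shortest transcripts to -0.86 in the 10% with the longest, and rose from -0.73 in the 10% lowest in GC to 0.49 in the 10% highest. In the non-treated cultures the same medians ran from 0.29 to -0.30 and from -0.45 to 0.16. Spred1, with a transcript of 6016 bases and 41.2% GC, is longer than 88.4% of the tested coding genes and has more GC than 7.13% of them. The bins of 10% that hold it had median differences of -0.48 by length and -0.73 by GC, and their part in its value was not tested beyond the offset. Spry4, with 4755 bases in the same length bin and 51.2% GC, showed 0.04 (SE 0.20), and Spred2, with 4449 bases, showed -0.35 (SE 0.21). Dusp1, with 1990 bases and 54.9% GC, showed 0.47 (SE 0.27), where the medians of its bins were 0.23 and 0.36.

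**Figure D3:**
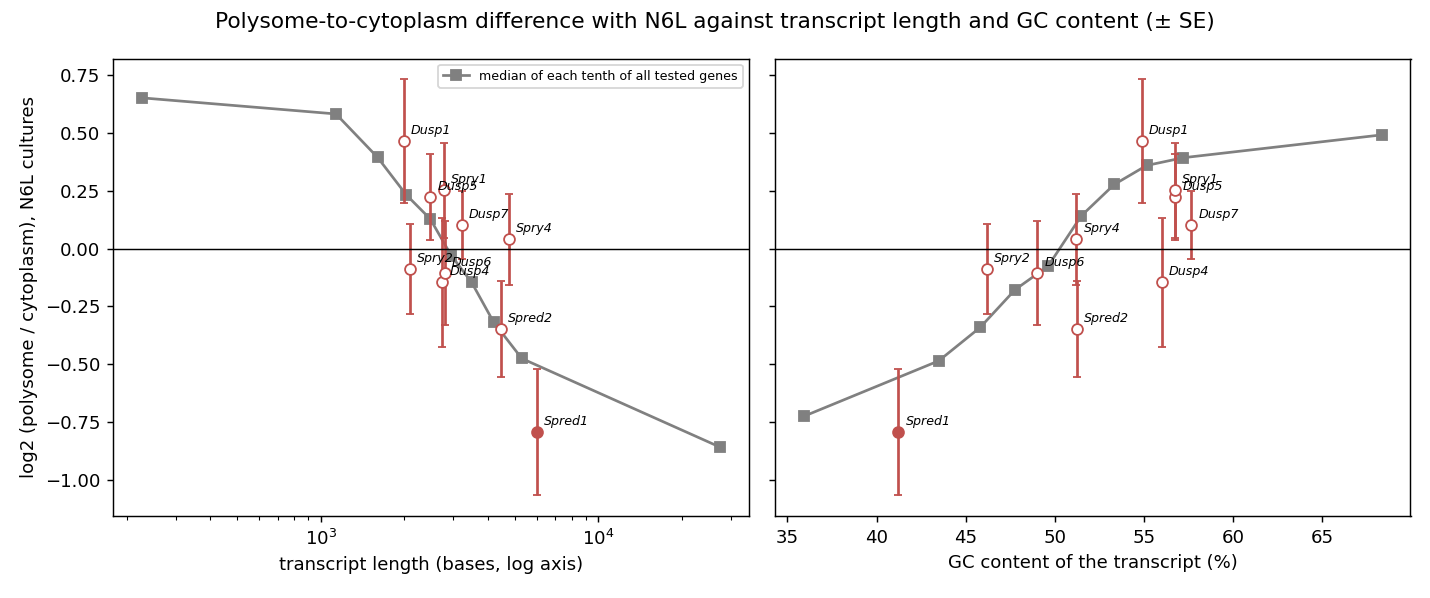
Log2 difference of polysome against cytoplasm in N6L-treated cultures (vertical axis) against transcript length (left, log axis, bases) and GC content (right, %), for the 10 genes (red, with SE, filled if called) and as the median of each bin of 10% of all tested genes (grey squares). Spred1, at -0.80, lies at the long, GC-poor end, where the medians of all genes are also negative.

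The fourth comparison was the translational index (TI), the polysome-to-cytoplasm ratio with N6L relative to the ratio without. 0 of the 10 genes and 0% of all tested genes were called, with a smallest adjusted p of 0.555 over all genes. In this fit without the pairing, 0 of the 10 and 1074 of all genes had an unadjusted p under 0.05. With the replicate block Dusp4 and Spred1 had an unadjusted p under 0.05, and again 0 of the 10 were called. DESeq2 likewise called 0 of the 10 genes. The ratio of each culture was compared as well, by an exact two-sided permutation test, whose smallest possible p with 3 against 3 is 0.1. The ratios of 2 of the 10 genes, Dusp4 and Spred1, did not overlap between the treatments, against 29.7% of all tested genes.

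Dusp4 was the only gene of the 10 in which all non-treated ratios lay on the other side of 0 from all ratios with N6L. Its log2 ratio was 0.52, 0.43 and 0.37 in NT cultures 1, 2 and 4, and -0.13, -0.17 and -0.14 in N6L cultures 1, 2 and 3. The means were 0.44 ± 0.08 without and -0.15 ± 0.02 with N6L (SD, n = 3), and the SDs were small beside the gap (exact permutation p = 0.1, adjusted over the 10 genes 0.4). The index was -0.59 (log2, SE 0.40, unadjusted p = 0.158, adjusted p = 0.562), so that the difference did not pass the test over all genes. With the replicate block the index was again -0.59 (SE 0.13), at an unadjusted p of 0.00175 and an adjusted p of 0.196. With the offset for length and GC content it was -0.72 (adjusted p = 0.675), and leaving out 1 culture at a time gave values from -0.60 to -0.53.

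Spred1 had log2 ratios of -0.56, -0.37 and -0.14 in the NT cultures and -0.65, -0.70 and -1.12 with N6L, below 0 in all 6 cultures. Its index was -0.39 (SE 0.39, adjusted p = 0.650) and 0.09 with the offset for length and GC content. With the replicate block it was -0.47 (SE 0.19, unadjusted p = 0.0328, adjusted p = 0.214). Dusp1 had ratios of 0.05, 0.26 and 0.08 without and 0.24, 0.47 and 0.62 with N6L, above 0 in all 6 cultures, and an index of 0.32 (SE 0.38, adjusted p = 0.704), which was 0.07 with the offset. For Dusp5 the index was 0.25 (SE 0.26) and 0.01 with the offset, with N6L culture 3 (0.49) apart from cultures 1 and 2 (-0.01 and 0.17). The indices of the other 6 genes lay between -0.11 for Spred2 and 0.18 for Spry1, all smaller than their SE.

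**Figure D4:**
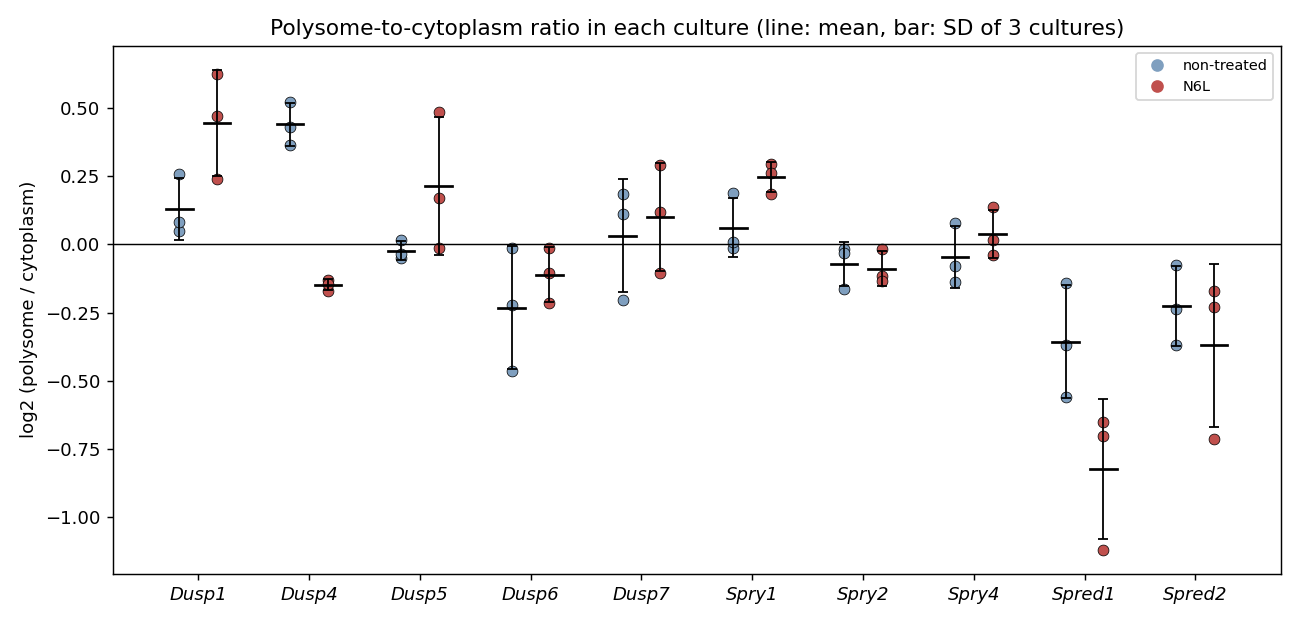
Log2 ratio of polysomal to cytoplasmic CPM in each culture (vertical axis) for the 10 genes, non-treated in blue and N6L-treated in red, with the mean as a line and the SD of 3 cultures as a bar. For Dusp4 the 3 non-treated points lie between 0.37 and 0.52 and the 3 treated points between -0.17 and -0.13, and for Spred1 all 6 points lie below 0.

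The 10 genes were then set beside each other over the 12 libraries, as a description, since libraries of a culture or treatment are not independent and share its depth and composition. Dusp1 and Dusp5 had the most similar profiles (Pearson r of log2 CPM 0.986), followed by Dusp1 and Spry4 (0.937), Dusp6 and Spry2 (0.936) and Spred1 and Spred2 (0.925). Dusp7 stood apart, with -0.244 to Dusp4 and -0.121 to Spry4. Among the 8959 genes that averaged 10 CPM or more, those most like Dusp6 were Otud1 (0.950), Ppp1r15b (0.946), Spry2 (0.936) and Sptlc1 (0.933). Those most like Spry2 were Calcoco1 (0.984), Zbtb4 (0.973), Rfx5 (0.970) and Pip5k1a (0.970). Those most like Spred1 were Nxt2 (0.976), Fgfr1op (0.973), Slc25a46 (0.971) and Efnb2 (0.971).

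The 3′ untranslated regions of most of these genes carry the letters ATTTA, the core of AU-rich elements that mark mRNAs for rapid decay. The pentamer was found in 9 of the 10 genes, all but Dusp7, beside 64.3% of the 12111 tested coding genes. It occurred 12 times in Spred1, 7 times in Spry4, 4 times each in Dusp1 and Spred2, and 1 or 2 times in Dusp4, Dusp5, Dusp6, Spry1 and Spry2. The longer TATTTAT was present in 6 of 10 (Dusp1, Spry1, Spry2, Spry4, Spred1 and Spred2), beside 26.9%. The region was longer than the median of 929 bases in 8 of the 10 genes, the exceptions being Dusp1 (690.0 bases) and Spry2 (856 bases). The counts of letters were not scaled by length. Among 6 factors that bind such elements, Zfp36 (log2 fold change 2.09 in the cytoplasm, SE 0.26, adjusted p = 0.000507), Zfp36l1 (1.43) and Zfp36l2 (1.18), which promote decay, rose with N6L in both fractions, while Khsrp, Hnrnpd and Elavl1 did not pass. Of all tested genes 14.5% were called higher in the cytoplasm and 6.01% in the polysomes. With the offset for length and GC content the same 3 genes were called higher. Elavl1, which stabilises such mRNAs (-0.38, and -0.87 with the offset, adjusted p = 0.00251), and Khsrp (-0.25, and -0.43, adjusted p = 0.0477) were then called lower in the cytoplasm. The shares of all tested genes called there with the offset were 12.02% higher and 17.94% lower.

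The wider pathway was described from lists chosen with earlier results of these data known. Of the other MAP kinase phosphatases, Dusp8 (log2 fold change 1.15, SE 0.26), Dusp10 (0.67, SE 0.16) and Dusp16 (1.04, SE 0.22), which act mainly on JNK and p38, rose in the cytoplasm, Dusp9 was at -0.54 (adjusted p = 0.0867), and Dusp2, with a mean of 0.0587 CPM in non-treated cytoplasm, was not tested. In the polysomes Dusp8 (1.20) and Dusp10 (0.63) rose and Dusp16 was at 0.43 (adjusted p = 0.226). Spred3 rose in the cytoplasm from 7.33 to 11.5 CPM (0.64, adjusted p = 0.0308) and was at 0.52 in the polysomes (adjusted p = 0.120). The median of the 4 tested phosphatases in the cytoplasm was 0.86, beside 0.04 over all genes. Of all tested genes 14.5% were called higher in the cytoplasm and 6.01% in the polysomes. The offset gave 12.02% of them higher and 17.94% lower in the cytoplasm. With the offset for length and GC content the median was 0.55, Dusp8, Dusp10 and Dusp16 (0.61) were again called higher in the cytoplasm, Dusp9 was called lower (-0.52, adjusted p = 0.0268), and Spred3 was no longer called (0.42, adjusted p = 0.0872).

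Of 15 other genes listed as negative regulators of receptor, Ras and ERK signalling, 5 rose and 0 fell in the cytoplasm. Their median was 0.53, and 14.5% of all tested genes were called higher. With the offset for length and GC content 5 were again called higher and 0 lower, with Erf in the place of Rasa2, and the median was 0.22. The largest changes were those of Ier3 (1.16, SE 0.25), Errfi1 (1.15, SE 0.21), Cblb (0.98, SE 0.24) and Rasa3 (0.69, SE 0.18). Ier3 encodes an immediate-early ERK substrate, and whether it limits ERK in these cells was not tested. Errfi1 encodes an inhibitor of the EGF receptor, Cblb a ubiquitin ligase for receptors and Rasa3 a GTPase-activating protein. Ier3 (1.67) and Errfi1 (0.97) rose also in the polysomes. Of 17 genes of the core from Grb2 to ERK, 2 rose, among them the scaffold Ksr1 (0.47, adjusted p = 0.0314), and Map2k2, which encodes MEK2, fell by 0.76 (adjusted p = 0.0212), with a median of 0.17. In the polysomes 1 of the 17 rose, Shc1 (0.58, adjusted p = 0.0332), a gene named after its value was seen. Of all tested genes 6.01% were called higher there. With the offset 1 gene of the core was called higher in the cytoplasm, Shc1 (0.37), and 3 lower, Map2k2 (-0.65), Hras (-0.59) and Nras (-0.77). Ksr1 was then at 0.17 (adjusted p = 0.365), and the median was 0.02. The offset calls of both lists in the cytoplasm stand beside 12.02% of all tested genes called higher and 17.94% lower.

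In the cytoplasm 28.3% of all tested genes were called and 14.5% were called higher. Of 12 genes whose transcription depends on ERK, 4 rose there and 0 fell, with a median of 0.20. These were the immediate-early factors Egr1 (1021 to 3295 CPM, log2 fold change 1.69, SE 0.29) and Fos (232 to 611 CPM, 1.40, SE 0.20), the ETS factor Etv1 (0.310 to 1.05 CPM, 1.71) and the receptor Epha4 (7.91 to 16.1 CPM, 1.02). Etv4 (-0.33), Etv5 (-0.16), Fosl1 (-0.29), Phlda1 (0.12), Ccnd1 (-0.29) and Myc (0.22), which did not pass, stood on both sides of 0. With the offset for length and GC content 5 of the 12 were called higher and 2 lower in the cytoplasm, since Ier2 (0.94, adjusted p = 0.00251), Ccnd1 (-0.58, adjusted p = 0.00591) and Etv5 (-0.45, adjusted p = 0.0158) were called and Epha4 was at 0.51. Egr1 (1.55), Fos (1.39) and Ier2 (1.22, adjusted p = 0.0118) rose in the polysomes, where 9.67% of all tested genes were called and 6.01% called higher. Of 11 genes of the JNK and p38 pathways, Map3k5 (0.80) and Mapk14 (0.44) rose and Mapk11 fell by 0.76 in the cytoplasm, with a median of -0.08, and 0 were called in the polysomes. With the offset Map3k5 (0.37, adjusted p = 0.0538) and Mapk14 (0.22, adjusted p = 0.114) lost their calls. Of the 11, 3 were called lower in the cytoplasm (Mapk9, Mapk11 and Mapk13) and 3 in the polysomes (Mapk9, Mapk11 and Map3k7). Among all tested genes the offset gave 12.02% called higher and 17.94% lower in the cytoplasm, and 9.27% higher and 12.1% lower in the polysomes.

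**Figure D5:**
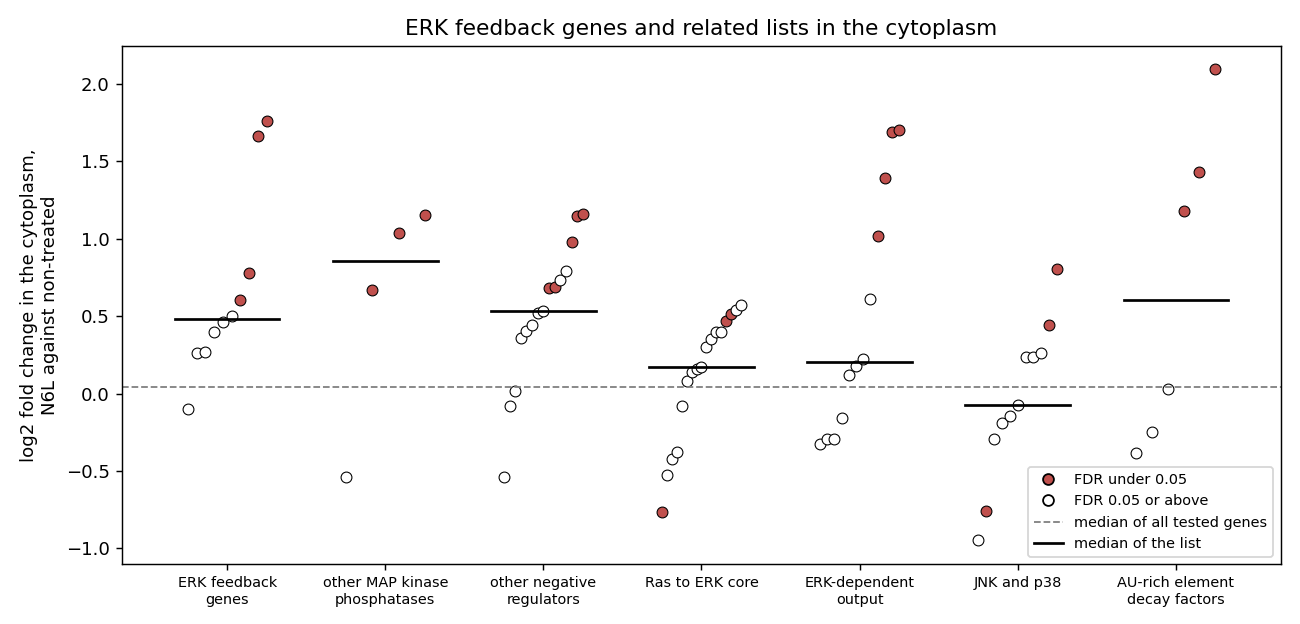
Log2 fold change in the cytoplasm, N6L against non-treated (vertical axis), of each tested gene of the 10 ERK feedback genes and of 6 related lists, red where the adjusted p is under 0.05, with the median of each list as a line and the median of all tested genes (0.04) dashed. The called genes of the AU-rich element decay factors reach 2.09 and those of the ERK feedback genes 1.76, while the JNK and p38 list has calls on both sides of 0.

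Between polysomes and cytoplasm of the N6L-treated cultures, the other negative regulators had 2 genes called higher (Ier3 and Pebp1) and 5 lower (Cbl, Cblb, Nf1, Rasa1 and Rasa2), with a median of -0.32, beside 0.03 over all genes. These counts, and those of the lists that follow without the offset, stand beside 39% of all tested genes called and 20.6% called lower. Nf1, which encodes the neurofibromin that Spred proteins bind, was at -1.28 (SE 0.27) and Rasa1 at -1.64 (SE 0.28). The core had 5 called higher (among them Shc1, Hras, Map2k2 and Mapk3) and 4 lower (Sos1, Sos2, Shoc2 and Braf), and the ERK-dependent list 2 higher (Etv4 and Ier2) and 2 lower (Etv1 and Epha4). Dusp16, the decay factor Khsrp and 4 of the JNK and p38 genes (Mapk8, Map2k4, Map3k5 and Map3k7) were lower. These genes were named after their values were seen. With the offset for length and GC content 9.63% of all tested genes were called higher and 7.93% lower. The other negative regulators then had 0 called higher and 2 lower (Cblb and Rasa1), and the core 4 higher and 2 lower. The ERK-dependent list had 0 higher and 1 lower (Epha4), and the JNK and p38 list 0 higher and 1 lower (Map3k5). The decay factors had 2 higher (Hnrnpd and Elavl1) and 1 lower (Khsrp), and Nf1 was at -0.16. Dusp16 was then at -0.05. In the non-treated cultures and for the index, 0 genes of these lists were called by edgeR, and with the offset 1 was, Epha4 in the non-treated cultures (-0.76, adjusted p = 0.0340).

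RNAs and cell type markers that moved in the same comparisons are given beside these results. Neat1, a nuclear-retained RNA, rose in the cytoplasm from 38 to 153 CPM (log2 fold change 2.01, SE 0.26) and in the polysomes from 21.9 to 80.6 CPM (1.88), while Malat1, also nuclear-retained, stood at 58.2 and 63.8 CPM in the cytoplasm. Among 8 tested ductal and epithelial markers 2 rose in the cytoplasm, among them Sox9 (1.09), and Krt7 fell by 0.97. Of all tested genes 28.3% were called there and 14.5% were called higher. Pecam1, an endothelial marker, rose in the cytoplasm from 0.0926 to 0.361 CPM (1.93, SE 0.63). The part of these RNAs in the changes of the feedback genes was not tested. For overlapping genes the counting of strand is not given in the sources used here. Spry1 shares 710.0 exon bases with Gm42922 on the opposite strand, which held 222 counts in all libraries against 23631 for Spry1, Dusp1 shares 11 exon bases with Ergic1, and Dusp5 shares 547 with an antisense gene that has no counts here.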

How the data were processed

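PolyA+ RNA of 12 libraries (cytoplasm and polysomes of 3 N6L-treated and 3 non-treated mPDAC cultures) was sequenced with a stranded kit. Per the labels, the authors demultiplexed with bcl2fastq 2.18.0.12, aligned to mm10 with STAR (2.5.2b in their methods) and counted reads per gene with HTSeq 0.5.3. The deposited values are raw counts, without normalization, in 48 sets, 4 technical replicates a library. No source used here gives the strand setting, the annotation or the handling of multiply mapped reads. Technical replicates were summed (chi-square per degree of freedom within a library 1.02 to 1.04).

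Genes were mapped to GENCODE vM21 (50376 of 50600 found), which gave length, GC content and 3′ regions from the transcript with the longest coding sequence. Counts were filtered with filterByExpr, scaled by TMM and fitted in edgeR 4.0.16 (R 4.3.3) by the quasi-likelihood test with 1 mean per group and no covariate. The p-values were adjusted by Benjamini-Hochberg over 13889 genes, limit 0.05, and the SE is the log2 fold change divided by the root of F. Ratios per culture used log2 CPM with a prior count of 2 and exact permutation tests in scipy 1.17.1. Nothing says whether cultures were grown separately, so p-values measure the spread between these samples. The procedure was also run on simulated counts, drawn independently for each library, with some genes changed in the N6L cytoplasm. The simulation held no pairing of fractions, so it cannot judge how the fraction and index tests behave with paired libraries.

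The fractions of a culture are paired because 1 lysate gave both. Over genes, the deviation of a library from its group mean and that of its partner had a Pearson r of 0.364 for NT culture 1, 0.452 for NT culture 2 and 0.645 for NT culture 4. The r was 0.0368, 0.199 and 0.229 for N6L cultures 1 to 3. A culture number that both treatments share pairs nothing.

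Named genes are all 10 members, and of each list the up to 4 called genes with the largest cytoplasmic change (all genes of a list of 5 or fewer). For Dusp6, Spry2 and Spred1 the 4 most correlated genes were named. The members and lists were chosen with earlier results of these data known. The fits were repeated with DESeq2 1.42.0, by RLE size factors, by library size without TMM, unfiltered, with a minimum of 10 counts per library, leaving out 1 culture at a time or the runs with conflicting labels, with the compared groups alone, with replicate blocks, and with an offset for length and GC content (splines with 4 degrees of freedom). Levels were also computed by mean transcript length, and likeness by Spearman correlation. The offset together with the block was added after seeing the data. Some genes of the lists are counted but not reported by name here.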

Additional observations from a re-analysis of the deposited data

Results flagged for a closer look

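The log2 polysome-to-cytoplasm ratio of Dusp4 was above 0 in the 3 non-treated cultures (0.37 to 0.52) and below 0 in the 3 N6L-treated cultures (-0.17 to -0.13), so that every culture of one treatment lay on the opposite side from every culture of the other. Ratios that did not overlap between the treatments were also found for 29.7% of all tested genes. The fitted difference of Dusp4 was -0.59 (log2, edgeR, SE 0.40) and did not pass the test (adjusted p = 0.562, and 0.196 with the replicate block). The exact two-sided permutation test of 3 against 3 gave the smallest p it allows, 0.1. Adjusted over the ERK feedback genes, this permutation p was 0.4.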

How the results depend on the processing

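Of 770 refitted log2 differences of single genes, 685 kept direction and side of the threshold, 21 lost and 9 gained a call and 55 changed sign, none of the latter called in the refit. The number of ERK feedback genes called, 4 in the cytoplasm and 4 in the polysomes, ranged without 1 culture from 2 (without N6L culture 2) to 4 and from 1 (without N6L culture 2) to 3. Between polysomes and cytoplasm of N6L-treated cultures the count of 1 became 3 with the replicate block, 0 with the length and GC offset, 2 with offset and block together (Spry4 0.39 and Dusp4 -0.39, an alternative chosen after seeing the data), and 0 to 2 without 1 culture. The block changed no other call of the 10 genes. Blocking on the culture number that both treatments share left 4 and 4 calls, and same-numbered libraries correlated by 0.00756 to 0.296. Spry2 was called in the cytoplasm by library size alone (0.64), unfiltered (0.54) and with the cytoplasmic libraries alone (0.46).

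Signs changed as follows, and the cause was not tested. With the length and GC offset, polysome against cytoplasm in non-treated cultures became -0.013 for Dusp1, -0.022 for Dusp7, -0.0089 for Spry1, 0.042 for Spry4 and 0.11 for Spred1. In N6L-treated cultures it became -0.11 for Dusp5, 0.013 for Dusp6, -0.073 for Dusp7, -0.018 for Spry1, 0.015 for Spry2 and 0.20 for Spred1. The index became -0.050 for Dusp7, -0.0094 for Spry1, 0.065 for Spry2, 0.094 for Spred1 and 0.11 for Spred2. With offset and block together these were -0.024 for Dusp1, -0.012 for Dusp7, -0.015 for Spry1, 0.042 for Spry4 and 0.14 for Spred1 in non-treated cultures. In N6L-treated cultures they were -0.11 for Dusp5, 0.0025 for Dusp6, -0.077 for Dusp7, -0.0081 for Spry1, 0.0083 for Spry2 and 0.20 for Spred1. For the index they were -0.066 for Dusp7, 0.050 for Spry2, 0.054 for Spred1 and 0.090 for Spred2. By library size alone Dusp7 was 0.037 in the cytoplasm and 0.061 in the polysomes, polysome against cytoplasm was -0.057 for Dusp7 and -0.0030 for Spry1 without N6L, and -0.033 for Dusp7 and -0.094 for Spry4 with it. The index of Spry2 was 0.0099 by RLE and 0.0100 by DESeq2. Without 1 culture, Dusp7 ranged from -0.21 to 0.024 in the cytoplasm, from -0.057 to 0.042 in the polysomes and from -0.081 to 0.15 between fractions without N6L, where Spry1 ranged from -0.0040 to 0.11. Spred1 ranged from -0.13 to 0.28 in the polysomes. The index ranged from -0.0091 to 0.27 for Dusp6, from -0.046 to 0.20 for Dusp7, from -0.064 to 0.052 for Spry2 and from -0.20 to 0.039 for Spred2.

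Over all genes, calls in the cytoplasm ranged from 1295 to 4042 without 1 culture (3935 with all). In the polysomes 1343 became 328 with the compared groups alone, 2965 with the offset, 2034 by DESeq2 and 146 to 1579 without 1 culture. Between fractions 5415 with N6L became 2439 with the offset and 1153 to 5861 without 1 culture, and 29 without N6L became 0 to 647 over all alternatives. The index, with 0, had 114 calls unfiltered and 1 without N6L culture 1 or with offset and block. By mean transcript length Dusp6 stood at 157 and Dusp7 at 38.3 CPM per kb. By Spearman correlation 2 of the 4 genes most like Dusp6, 0 of those most like Spry2 and 1 of those most like Spred1 were again among the first 4.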
